A study of Mus musculus with 18 samples.

Results

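The integrated stress response set analysed here holds 10 genes, Atf4, Atf5, Ddit3, Ppp1r15a, Trib3, Nupr1, Chac1, Asns, Ddit4 and Sesn2, out of 51467 genes in the deposited table. They were found by matching Ensembl gene identifiers to these symbols, and all 10 had a match. Chac1 and Nupr1 put the set on the list because they were among the most reduced genes of the Dgcr8 knockout (KO), and the other 8 were taken by name as members of the same pathway. The KO to WT values of Chac1 and Nupr1 are therefore given as a description with no test. All 10 passed the filter on low counts, a level of 3 CPM (reads of the gene scaled to a common library total) in at least 3 of 18 libraries, but Chac1 passed it through its wild-type (WT) libraries.

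The data are polysome profiles of mouse embryonic stem cells (ESCs) of 2 genotypes, WT cells of the V6.5 line and a Dgcr8 KO line, which lacks canonical microRNAs because DGCR8 is needed to process their precursors. Both were grown in serum-containing medium with LIF and the inhibitors PD0325901 and CHIR99021 (2i), and ribosomes were held on their messages with cycloheximide (100 ug/ml, 2 minutes). Lysates were run on 10 to 50% sucrose gradients, 3 per genotype, and each gradient was collected as monosomes, low polysomes (2 to 4 ribosomes per message) and high polysomes (4 or more), which makes 6 groups of 3 libraries. The RNA was read at its 3′ ends with QuantSeq. Each genotype is 1 line, so an effect of genotype and a difference between the lines cannot be told apart, and nothing in the labels says that the 3 gradients came from separate experiments, so p-values measure the spread between these gradients. In a bulk fraction, fewer cells that make a message and less message per cell cannot be told apart.

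The integrated stress response is a pathway in which kinases that sense amino acid shortage, unfolded protein in the endoplasmic reticulum, viral RNA or lack of haem phosphorylate the initiation factor eIF2. General initiation then slows, while messages with particular upstream open reading frames, the best known being that of the transcription factor ATF4, are translated more. ATF4 in turn switches on genes for amino acid uptake and synthesis, further transcription factors, and feedback regulators such as the eIF2 phosphatase subunit GADD34, the product of Ppp1r15a.

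Libraries held 1151649 to 4984833 counts in genes, with the smallest in WT monosomes, where 3 counts correspond to about 2.65 CPM. Reads of the targeted gene Dgcr8 numbered 38 to 183 per KO library. Its log2 changes in KO monosomes, low polysomes and high polysomes were -0.56, -0.45 and -1.01, and where the deletion lies relative to the 3′ reads was not given in the sources used here. The 10 ESC marker genes examined, among them Pou5f1, Sox2 and Nanog, were all present, and their counts summed to 3442 to 6211 per library in WT and 3257 to 4118 in KO cells on a plain CPM scale, which divides by the library total with no TMM factor and is used for all marker sums. Of these 10, Pou5f1 (log2 change -1.42) and Dppa5a (-1.65) were called lower in KO high polysomes, and none was called in the other fractions. Of 6 primitive endoderm markers, Gata4, Gata6 and Sox17 were too low to test (79, 16 and 32 reads over all 18 libraries), whereas Sparc was high and the list summed to 813 to 3398 plain CPM in WT and 1051 to 6460 in KO libraries. Nearly all of this sum was Sparc. In KO high polysomes Sparc and Pdgfra were called higher and Dab2 lower, Pdgfra on 34 and Dab2 on 4 KO reads. Dab2 was also called lower in low polysomes. Summed trophoblast markers (4 genes) were at 102 to 181 plain CPM in WT and 102 to 144 in KO libraries, with 1 gene at 0 in every KO library. Nearly all of this sum was Tfap2c, with TMM-scaled group means of 104 to 153 CPM. Summed fibroblast markers (6 genes) were at 7.18 to 12.8 and 2.05 to 21.5 plain CPM, with 1 gene at 0 in every WT library. Of these, Col1a1 was called lower in KO cells in all 3 fractions, on 3, 18 and 11 KO reads. The part of these markers in the results below was not tested.

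To show where ATF4 could bind, the promoter windows of the members (RefSeq, GRCm38.p6, 250 bases before to 50 after each start) were searched on both strands for TGATGNAA, the core of the C/EBP-ATF response element that ATF4 recognises with a C/EBP partner. Windows were found for all 10 members, 11 in all, and 4 genes held a match, Chac1, Nupr1, Asns and Trib3. A match was present in 2.65% of 9619 tested genes with a window and in 4.51% of 27025 genes with a window. Chac1, a glutathione-degrading enzyme, Nupr1, a small stress-induced chromatin protein, and Asns, asparagine synthetase, had their match upstream of the RefSeq start, and these 3 sites are shown with the match in capitals, 5′ to 3′ on the strand of the gene. A match is a description of letters and says nothing about binding in these cells.
Chac1: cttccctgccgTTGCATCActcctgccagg
Nupr1: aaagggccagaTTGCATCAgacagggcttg
Asns: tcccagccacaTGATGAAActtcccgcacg

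The Chac1 window (chr2:119351038-119351067, plus strand) lay outside the GENCODE gene and its match began at position -193 from the start. The Nupr1 window (chr7:126625562-126625591, minus strand) began its match at position -110 and overlapped exons of longer Nupr1 transcripts of GENCODE. The Asns window (chr6:7693214-7693243, minus strand) began its match at position -23 and overlapped a GENCODE exon of Asns. In Chac1 and Nupr1 the match was on the opposite strand, so the capitals show its reverse complement. The match of Trib3 lay after the start, at positions 14 to 21, and none was found in the windows of Atf4, Atf5, Ddit3, Ddit4, Sesn2 and Ppp1r15a.

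The other sequence of interest is that of the microRNAs that KO cells lack. The most abundant family of ESCs shares the seed of miR-294, shown here because KO cells lack this family. The mature sequence (RefSeq, chr7:3220691-3220712, plus strand) has its seed, bases 2 to 8, in capitals.
mmu-miR-294-3p: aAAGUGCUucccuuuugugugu

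The hexamer that pairs with this seed, GCACTT, was present in the 3′ UTR of 1 member, Sesn2, at 1 position, against 29.98% of 11763 tested protein-coding genes with at least 1. The other 9 members held none in their annotated principal transcript.

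The results begin with ATF4 itself, the transcription factor at the centre of the pathway (ENSMUSG00000042406, chromosome 15, 80255184 to 80257541, plus strand). In WT cells Atf4 was at 913, 959 and 984 CPM in the monosome libraries, 1658, 1476 and 1427 CPM in low polysomes, and 1042, 971 and 1006 CPM in high polysomes. In KO cells it was at 400.2, 537 and 436 CPM in monosomes, 227, 229 and 227 CPM in low polysomes, and 99.2, 98.8 and 120 CPM in high polysomes. Every KO library was below every WT library of the same fraction. The mean KO level was 48.1, 15.0 and 10.5% of WT from the lightest to the heaviest fraction. The corresponding log2 changes were -1.06 ± 0.11 (SE), -2.74 ± 0.11 and -3.25 ± 0.12, with adjusted p of 6.2e-10, 1.1e-22 and 3.0e-24 (limma). The monosome change was -0.98 without KO gradient 1, -0.96 with total counts in place of TMM scaling and -0.98 with no filter on low counts, each short of the threshold of 1 that a call needs beside an adjusted p under 0.05.

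**Figure D1:**
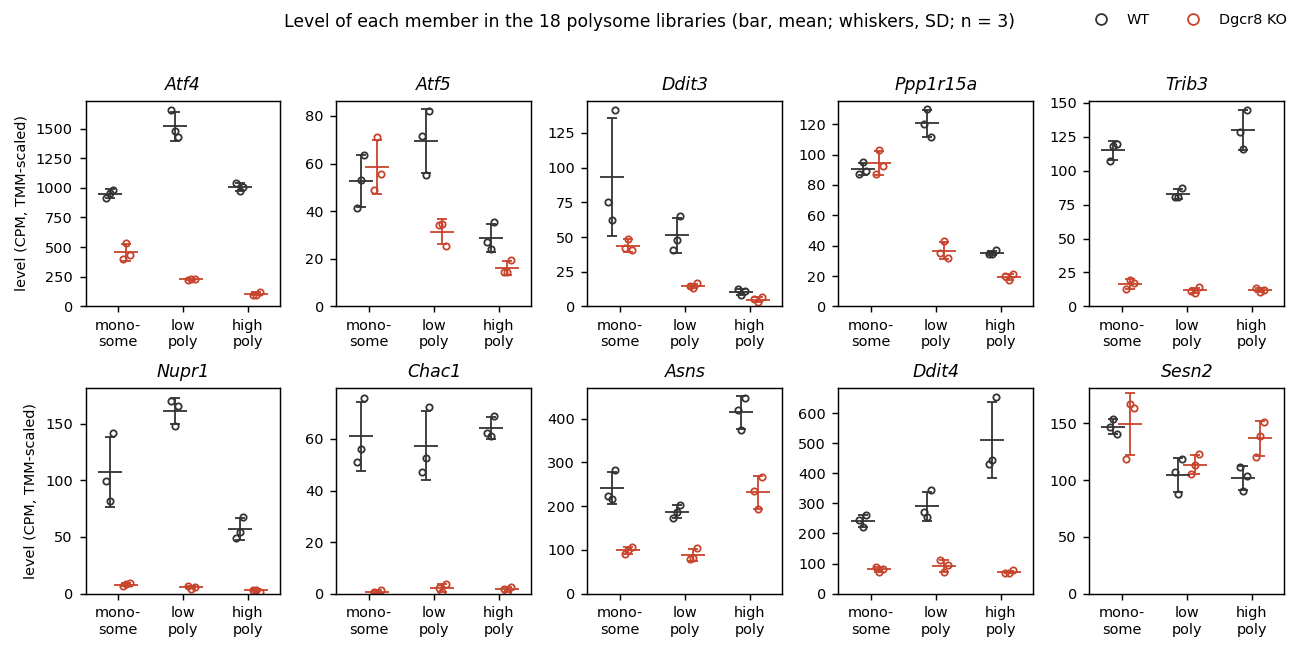
Level of each of the 10 genes (CPM, TMM-scaled, linear axes that start at 0) in monosomes, low polysomes and high polysomes of WT (dark) and Dgcr8 KO (red) ESCs; circles are libraries, bars the mean and whiskers the SD of 3. Atf4, Ddit3, Trib3, Nupr1, Chac1, Asns and Ddit4 are lower in KO cells in every fraction, Atf5 and Ppp1r15a overlap between genotypes in monosomes and separate in polysomes, and Sesn2 is not lower in KO cells in any fraction.

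Atf5 encodes a close relative of ATF4 whose message also carries regulatory upstream frames (ENSMUSG00000038539, chromosome 7, 44812256 to 44816658, minus strand). It was at 41.5, 52.9 and 63.7 CPM in WT monosomes and 48.9, 71.1 and 55.6 CPM in KO monosomes. In low polysomes the WT libraries were at 71.6, 55.2 and 81.9 CPM and the KO libraries at 34.1, 34.6 and 25.2 CPM, and in high polysomes at 26.9, 24.1 and 35.4 CPM against 14.5, 14.6 and 19.5 CPM. The genotypes overlapped in monosomes and did not overlap in either polysome fraction. The log2 change was 0.19 ± 0.20 in monosomes (adjusted p = 0.49), -1.15 ± 0.17 in low polysomes (adjusted p = 4.4e-07) and -0.80 ± 0.22 in high polysomes (adjusted p = 0.0018, limma), so that Atf5 was called lower in low polysomes. That call rested on a value near the threshold, at -0.99 without KO gradient 3.

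Ddit3 encodes CHOP, a C/EBP family factor of the later, apoptosis-linked part of the response (ENSMUSG00000025408, chromosome 10, 127290774 to 127296288, plus strand). It was at 75.01, 62.6 and 141 CPM in WT monosomes, 40.9, 48.0 and 65.3 CPM in WT low polysomes, and 12.5, 7.93 and 11.2 CPM in WT high polysomes. In KO cells the values were 42.3, 48.9 and 40.3 CPM, 14.5, 13.5 and 16.6 CPM, and 5.29, 3.11 and 6.43 CPM. KO libraries were below WT libraries throughout, with WT monosome library 3 far above the other two. The fitted log2 change was -0.95 ± 0.20 in monosomes, -1.76 ± 0.23 in low polysomes (adjusted p = 2.5e-08) and -1.06 ± 0.39 in high polysomes (adjusted p = 0.017, limma). The high polysome value rests on 10 to 35 reads per library, and without WT gradient 1 or KO gradient 2 it was -0.96 and -0.75 (adjusted p = 0.057 and 0.12). With no filter on low counts it was -1.06 (adjusted p = 0.052). The monosome value, not called, ran from -0.65 without WT gradient 3 to -1.15 without WT gradient 2, and it passed the threshold there, without WT gradient 1 (-1.06), with the replicate number as a block (-1.03, adjusted p = 1.7e-05), with edgeR (-1.05) and with DESeq2 (-1.07).

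Ppp1r15a encodes GADD34, which recruits protein phosphatase 1 to dephosphorylate eIF2 and so closes the feedback loop (ENSMUSG00000040435, chromosome 7, 45522916 to 45526268, minus strand). Monosome libraries were at 87.1, 94.9 and 89.3 CPM for WT and at 87.3, 103 and 92.5 CPM for KO cells. In low polysomes the WT levels were 112 to 130 CPM and the KO levels 35.3, 42.9 and 31.8 CPM, and in high polysomes 34.7, 34.6 and 36.9 CPM against 19.8, 17.1 and 21.4 CPM. The genotypes overlapped in monosomes and were apart in both polysome fractions, the pattern also seen for Atf5. The log2 change was 0.06 ± 0.14 in monosomes (adjusted p = 0.78), -1.73 ± 0.13 in low polysomes (adjusted p = 4.9e-14) and -0.86 ± 0.17 in high polysomes (adjusted p = 3.5e-05, limma).

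Trib3 encodes a pseudokinase induced by ATF4 and CHOP that in turn restrains ATF4 (ENSMUSG00000032715, chromosome 2, 152337422 to 152344032, minus strand). WT libraries were at 107, 118 and 119 CPM in monosomes, 80.7, 80.6 and 87.0 CPM in low polysomes, and 129, 116 and 145 CPM in high polysomes. KO libraries were at 12.8, 19.8 and 17.2 CPM, 11.4, 9.93 and 13.9 CPM, and 13.9, 10.9 and 12.2 CPM. KO levels were 14.5, 14.2 and 9.48% of the WT mean in the 3 fractions, and no library of one genotype approached the other. The log2 changes were -2.76 ± 0.19, -2.80 ± 0.18 and -3.39 ± 0.18, with adjusted p of 8.8e-15, 4.0e-16 and 3.0e-19 (limma).

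Ddit4 encodes REDD1, an inhibitor of mTORC1 that is also induced by hypoxia and glucocorticoids (ENSMUSG00000020108, chromosome 10, 59949669 to 59951834, minus strand). WT libraries were at 246, 221 and 261 CPM in monosomes, 271, 254 and 345 CPM in low polysomes, and 432, 443 and 654 CPM in high polysomes. KO libraries were at 88.9, 72.2 and 83.4 CPM, 110.3, 72.4 and 95.1 CPM, and 69.4, 69.9 and 77.2 CPM. In WT cells the level was highest in high polysomes in each gradient, whereas in KO cells the 3 fractions lay close together. The log2 changes were -1.58 ± 0.16, -1.65 ± 0.15 and -2.79 ± 0.15, with adjusted p of 3.0e-10, 2.2e-12 and 5.6e-19 (limma).

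Asns, whose product makes asparagine from aspartate and glutamine (ENSMUSG00000029752, chromosome 6, 7675169 to 7693254, minus strand), had a mean monosome level of 242 ± 36.0 CPM (SD, n = 3) in WT against 99.4 ± 8.28 CPM in KO cells. The WT and KO means were 188 ± 14.6 and 88.4 ± 13.2 CPM in low polysomes, and 415 ± 37.2 and 232 ± 37.5 CPM in high polysomes. All KO libraries were below all WT libraries in each fraction. In the same order of fractions, the log2 changes were -1.26 ± 0.14, -1.09 ± 0.13 and -0.84 ± 0.12, with adjusted p of 2.4e-09, 7.4e-09 and 2.2e-07 (limma), and passed the fold threshold in monosomes and low polysomes.

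Sesn2 encodes sestrin 2, a leucine sensor upstream of mTORC1 that is a target of both ATF4 and p53 (ENSMUSG00000028893, chromosome 4, 132492032 to 132510501, minus strand). It was not called in any fraction. The WT and KO means were 147 ± 6.51 and 149.7 ± 27.2 CPM in monosomes, 104 ± 15.2 and 114 ± 8.65 CPM in low polysomes, and 102 ± 10.6 and 137 ± 15.5 CPM in high polysomes (SD, n = 3). The genotypes overlapped in monosomes and low polysomes, and in high polysomes the KO libraries, at 120 to 151 CPM, were above the WT libraries, at 90.8 to 112 CPM. The log2 change in high polysomes was 0.42 ± 0.14 (adjusted p = 0.0068, limma), under the fold threshold, and the values in the other fractions were 0.02 ± 0.14 and 0.13 ± 0.14.

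Chac1 and Nupr1, whose KO values chose the set, are described without a test. Chac1 (ENSMUSG00000027313, chromosome 2, 119351229 to 119354381, plus strand) had 76 to 87 reads in each WT monosome library, 134 to 241 in low polysomes and 160 to 217 in high polysomes. KO monosome libraries had 1, 0 and 4 reads, low polysome libraries 7, 2 and 14, and high polysome libraries 5, 2 and 12. The mean WT levels were 61.0 ± 13.3, 57.4 ± 13.4 and 64.3 ± 4.24 CPM (SD, n = 3), and the KO means were 1.16, 3.76 and 2.61% of these. Chac1 had the lowest of all 12851 log2 changes in monosomes (-6.52), the 11th lowest in low polysomes (-4.83) and the 7th lowest in high polysomes (-5.27). With so few KO reads the monosome value ran from -7.21 without KO gradient 3 to -5.48 without KO gradient 2, and the KO libraries do not give its distribution over fractions with any precision.

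Nupr1 (ENSMUSG00000030717, chromosome 7, 126623249 to 126630861, minus strand) was at 99.8, 81.3 and 141 CPM in WT monosomes, 169.9, 148 and 166 CPM in WT low polysomes, and 49.1, 54.4 and 67.5 CPM in WT high polysomes. KO libraries were at 6.67, 8.15 and 9.40 CPM, 6.76, 4.49 and 6.31 CPM, and 3.64, 3.11 and 1.84 CPM. The KO means were 7.51, 3.63 and 5.02% of the WT means, with log2 changes of -3.63, -4.76 and -4.36 and ranks of 48, 15 and 22 from the lowest. Without KO gradient 3 the high polysome value was -4.02.

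**Figure D2:**
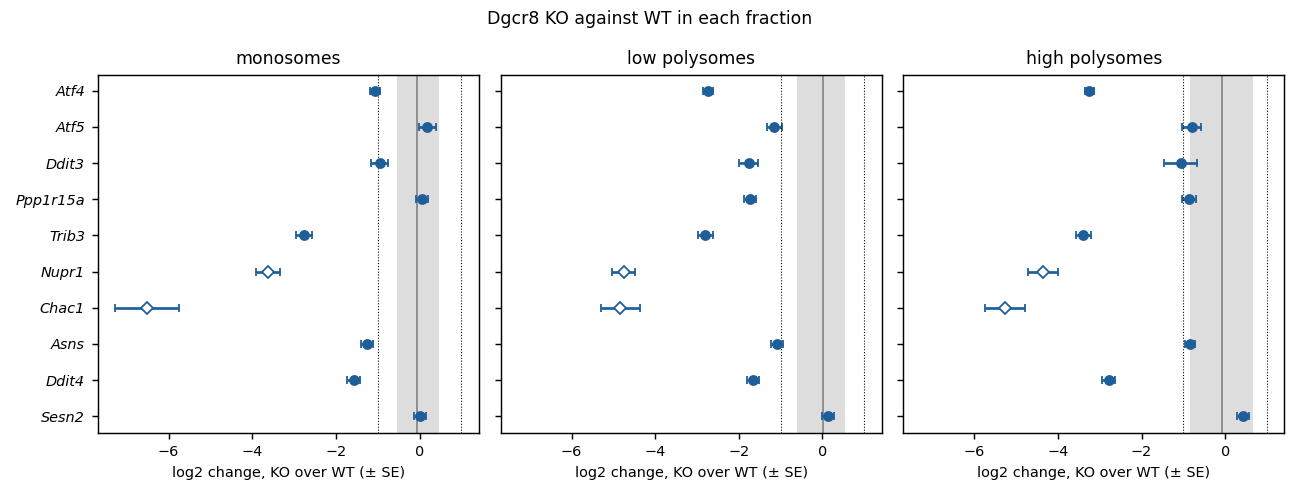
Log2 change of each gene in Dgcr8 KO over WT cells in monosomes, low polysomes and high polysomes (points, limma estimate; whiskers, SE), with the quartile range of all 12851 genes tested in grey and dotted lines at the threshold of 1 in each direction. Open diamonds mark Chac1 and Nupr1, whose values chose the set; Atf4 moves from -1.06 to -3.25 between monosomes and high polysomes, and Sesn2 stays within the grey range.

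Of the 8 members taken by name, 4 were called lower in KO monosomes (Atf4, Trib3, Ddit4 and Asns), 7 in low polysomes (all but Sesn2) and 4 in high polysomes (Atf4, Trib3, Ddit4 and Ddit3), and none was called higher. Over all genes tested, 9.63, 13.6 and 17.9% were called lower in these fractions and 8.43, 11.4 and 15.1% higher. The median log2 change of the 8 was -1.01, -1.69 and -0.96, against -0.05, 0.00 and -0.08 over all genes. Of the 8, all 3 KO libraries lay below all 3 WT libraries in monosomes for Atf4, Ddit3, Trib3, Ddit4 and Asns. In both polysome fractions this held for Atf5 and Ppp1r15a as well, and not for Sesn2. Over all genes it held for 25.7, 28.4 and 33.7% in the 3 fractions. Chac1 and Nupr1, below in every fraction, are left out here because they chose the set. With total counts, Atf5, Asns and Ppp1r15a were called lower in high polysomes as well (-1.03, -1.07 and -1.08). The set was chosen on this contrast through Chac1 and Nupr1, so these counts describe it and are not independent evidence of a direction.

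The next question was how each message is spread over the gradient, taken as the high polysome to monosome ratio. The rule that picked Chac1 and Nupr1 did not use this ratio. It shares its libraries with the KO to WT changes, however, and the members and tests were chosen with earlier results of these data known. Each library was scaled to its own total, so levels and ratios are relative to the other messages of each fraction. They do not give the share of a message's molecules along the gradient. In WT cells the log2 ratio was called lower than 0 for Ddit3 (-3.02 ± 0.28, adjusted p = 3.8e-12) and Ppp1r15a (-1.35 ± 0.15, adjusted p = 1.0e-09) and higher for Ddit4 (1.05 ± 0.15, adjusted p = 8.1e-08, limma). Asns was next highest at 0.79 ± 0.13, while Atf5 (-0.84 ± 0.21), Nupr1 (-0.86 ± 0.16) and Sesn2 (-0.53 ± 0.14) were below 0 with adjusted p of 8.3e-04, 2.1e-05 and 0.0018 but short of the fold threshold. Atf4 (0.08 ± 0.11), Chac1 (0.11 ± 0.19) and Trib3 (0.17 ± 0.13) lay near 0, where the median gene was (-0.01). Over all genes, 10.7% were called higher and 19.3% lower in this comparison. The value of Ddit4 was 0.90 without WT gradient 3 and 0.97 with a 10 CPM filter, both short of a call.

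In KO cells the ratio was called lower for 5 members and higher for 1. The 5 were Ddit3 (-3.13 ± 0.34), Ppp1r15a (-2.27 ± 0.16), Atf4 (-2.10 ± 0.12), Atf5 (-1.83 ± 0.21) and Nupr1 (-1.59 ± 0.42), with adjusted p of 1.6e-10, 5.8e-16, 1.3e-18, 4.2e-10 and 0.0011. Asns was called higher, at 1.21 ± 0.14 (adjusted p = 4.3e-10, limma). Ddit4 (-0.16 ± 0.17), Sesn2 (-0.13 ± 0.13), Trib3 (-0.46 ± 0.23) and Chac1 (1.37 ± 0.88) were not called. Over all genes, 25.5% were called lower and 17.5% higher in this comparison. The call of Nupr1 was lost without KO gradient 3 (-1.14, adjusted p = 0.060) and that of Asns with total counts (0.96).

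The change of this ratio between genotypes, tested as an interaction, was called for 2 of the 8 members tested, Atf4 and Ddit4, both lower, against 8.81% of all genes called lower and 6.29% called higher. Per gradient, the log2 ratio of Atf4 was 0.19, 0.02 and 0.03 in WT and -2.005, -2.44 and -1.86 in KO cells. The change was -2.18 ± 0.16 (adjusted p = 1.9e-12, limma), the 121st lowest of 12851 genes. For Ddit4 the per-gradient values were 0.81, 0.997 and 1.32 in WT and -0.35, -0.05 and -0.11 in KO cells, a change of -1.21 ± 0.22 (adjusted p = 4.7e-05). The gradients of both genes separated fully by genotype, as did those of Asns and Sesn2 with KO above WT. The share of all genes whose gradients separate was not computed.

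Atf5 and Ppp1r15a had an adjusted p under 0.05 and changes just under the fold threshold, so neither was called. Atf5 had log2 ratios of -0.61, -1.11 and -0.84 in WT and -1.70, -2.23 and -1.48 in KO gradients, a change of -0.99 ± 0.29 (adjusted p = 0.0096, limma). Ppp1r15a had -1.31, -1.44 and -1.26 in WT and -2.10, -2.54 and -2.08 in KO gradients, a change of -0.92 ± 0.22 (adjusted p = 0.0014). The KO gradients lay below the WT gradients for both. Without WT gradient 2 or KO gradient 3 both changes passed 1 (-1.16 and -1.19 for Atf5, -1.004 and -1.02 for Ppp1r15a), as did that of Atf5 without KO gradient 1 (-1.02), with no filter (-1.05) and with a 10 CPM filter (-1.02). With total counts they were -1.32 and -1.25.

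The other members gave no call. The change was -0.63 ± 0.26 for Trib3 (adjusted p = 0.067), 0.42 ± 0.19 for Asns (adjusted p = 0.097), 0.41 ± 0.20 for Sesn2 (adjusted p = 0.12) and -0.11 ± 0.44 for Ddit3 (adjusted p = 0.88, limma). For Nupr1 the value was -0.74 and for Chac1 1.25, neither tested and the latter resting on 5 and 19 KO reads in monosomes and high polysomes.

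**Figure D3:**
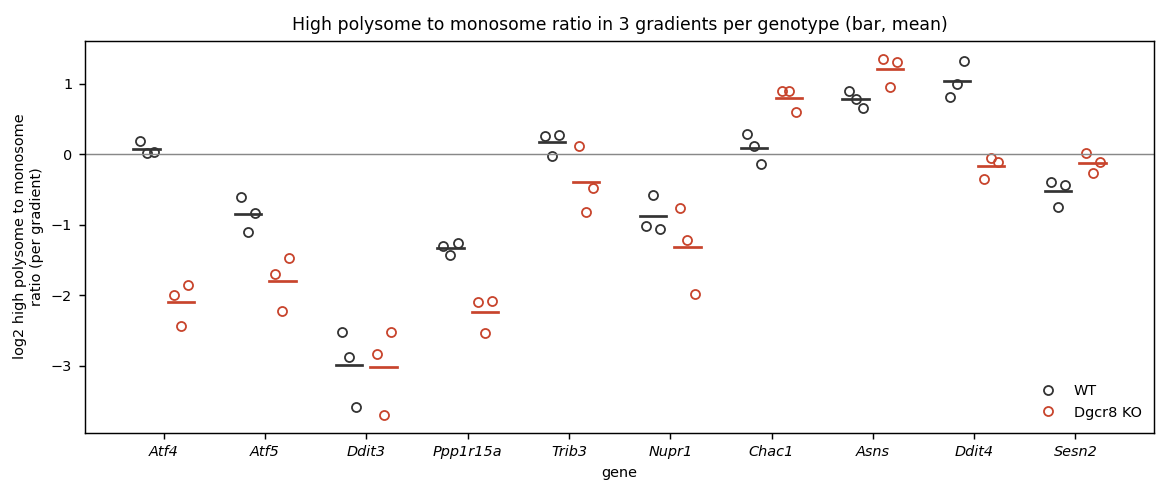
Log2 ratio of high polysome to monosome level (y axis) for each gene in the 3 WT (dark) and 3 Dgcr8 KO (red) gradients, with bars at the mean. KO gradients lie below all WT gradients for Atf4, Atf5, Ppp1r15a and Ddit4 and above them for Asns, Sesn2 and Chac1, while Ddit3 is at about -3 in both genotypes.

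The low polysome to monosome ratios are described without a test. The log2 low polysome to monosome ratio of Atf4 was 0.54 to 0.86 in WT and -1.23 to -0.82 in KO gradients, and that of Ppp1r15a 0.32 to 0.46 and -1.52 to -1.25. For Atf5 it was 0.06 to 0.78 in WT and -1.12 to -0.51 in KO gradients, and for Nupr1 0.23 to 0.86 and -0.77 to 0.02. All 4 had their highest mean WT level in low polysomes and their highest KO level in monosomes. Trib3 (-0.55 to -0.41 in WT, -0.95 to -0.16 in KO gradients), Ddit4 (0.14 to 0.40, 0.00 to 0.31) and Asns (-0.48 to -0.22, -0.28 to -0.06) overlapped between genotypes, as did Sesn2 (-0.80 to -0.25, -0.56 to -0.17). Ddit3 was at -1.11 to -0.38 in WT and lower, at -1.81 to -1.25, in KO gradients, whereas Chac1, with few KO reads, was at -0.11 to -0.07 in WT and higher, at 0.92 to 1.17, in KO gradients.

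The members differ in their 5′ UTRs (GENCODE M21 principal transcripts). Atf4 has 3 upstream ATGs, which open frames of 36, 3 and 59 codons, and the last overlaps the main frame out of phase. Atf5 has 2, with frames of 3 and 58 codons, the last again overlapping. Ppp1r15a has 3 (45, 34 and 26 codons), Ddit3 has 2 (34 and 31 codons), Asns 2 (14 and 13 codons), Nupr1 1 (24 codons) and Sesn2 1 (22 codons), all ending before the main frame, and Chac1, Ddit4 and Trib3 have none. The 2 ATGs of Ddit3 are in phase and end at the same stop codon, so they open a single frame, and the same holds for Asns. At least 1 upstream ATG was found in 48.8% of 11763 tested protein-coding genes and an overlapping frame in 15.7%. The 2 members with an overlapping frame, Atf4 and Atf5, had interaction changes of -2.18 and -0.99, compared with a median of -0.09 over all genes with such a frame. Ddit4, with no upstream ATG, had a change of -1.21.

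Across genes, the change of the ratio varied with the length of the coding sequence (CDS), so the value of each member was set beside the median of its CDS length decile. These medians ran from -0.94 in the shortest decile (78 to 525 bases) to 0.62 in the longest (3417 to 100404 bases). The difference from the decile median was -2.03 for Atf4 (1050 bases) and -1.25 for Ppp1r15a (1974 bases). It was -0.65 for Atf5 (852 bases), -0.57 for Ddit4 (690 bases) and -0.48 for Trib3 (1065 bases). Nupr1 (243 bases) and Ddit3 (507 bases), in the shortest decile, had differences of 0.20 and 0.83, the opposite sign to their unadjusted changes.

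To place the members in their pathway, further genes of the response were examined by list. Of 16 other targets of ATF4 and CHOP, all passed the filter, but Fgf21 and Atf3 did so through WT libraries alone, since every KO library was under 3 CPM. Vldlr and Cebpb also needed their WT libraries to pass. Their KO means in the 3 fractions were 0.76, 1.86 and 2.92 CPM, and 1.02, 2.73 and 2.65 CPM. These genes were kept in the counts that follow. Among the 14 without Fgf21 and Atf3, 8 were called lower and 1 higher in KO high polysomes, with a median log2 change of -1.48. Of all 12172 genes tested that were not under 3 CPM throughout one genotype, 16.9% were called lower and 14.6% higher, with a median of -0.07. In all 3 fractions 7 of the 14 were called lower, against 3.51% of these genes (4.44% of all genes tested), and none was called higher, against 5.49% of all genes tested. The 7 include Vldlr and Cebpb, which had 5 and 7 reads over the KO monosome libraries, so this count leans on genes that passed through WT libraries. Fgf21, a stress hormone, had 15, 39 and 21 reads over the WT libraries of monosomes, low and high polysomes and 0, 1 and 0 over the KO libraries, too few for a fold. The other genes with the largest mean change were Atf3, a stress-induced transcription factor (log2 changes of -2.79, -2.22 and -3.57 in the 3 fractions, on 10, 17 and 12 KO reads), Vegfa, the angiogenic growth factor (-2.88, -2.59 and -2.75), and Stc2, a secreted glycoprotein (-2.62, -2.20 and -2.41). Tnfrsf10b, the death receptor that CHOP induces, was the one called higher (1.36 in high polysomes).

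Among 11 tested genes of amino acid synthesis and one-carbon metabolism, 5 were called lower in high polysomes and 4 of these in all 3 fractions, and none was called higher. The fifth was Psph of serine synthesis (-1.78 in high polysomes). The 4 were Phgdh and Psat1 of serine synthesis (-2.93, -2.47 and -2.58, and -2.57, -1.70 and -2.04), the mitochondrial folate enzyme Mthfd2 (-2.41, -2.24 and -2.60) and Pycr1 of proline synthesis (-2.05, -1.86 and -2.23). The list median in high polysomes was -0.82, and 17.9% of all genes were called lower there, with 4.44% lower in all 3 fractions. Aldh1l2, with 86 reads in all, was too low to test.

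Amino acid transporters and aminoacyl-tRNA synthetases that ATF4 regulates were examined next. Of 8 transporters tested, 4 were called lower in monosomes (Slc1a4, Slc1a5, Slc6a9 and Slc7a5), and in high polysomes Slc1a4 was called lower and Slc38a2 higher (1.01), with a median of -0.33. Slc1a4, a carrier of small neutral amino acids, was lower in all 3 fractions (-1.91, -1.57 and -1.33), and Slc7a11, the cystine carrier, had 17 reads in all and was not tested. Of 12 synthetases, 8 were called lower in monosomes and 2, Nars and Yars, in high polysomes (median -0.48). Nars, for asparagine, was lower in all 3 fractions (-1.40, -1.24 and -1.17). Among all genes tested, 9.63% were called lower in monosomes, 17.9% lower and 15.1% higher in high polysomes, and 4.44% lower in all 3 fractions. The high polysome counts of transporters and synthetases were thus not above the background. Without KO gradient 2 the call of Nars in all 3 fractions was lost, and without KO gradient 3 the transporters called in high polysomes went from 2 to 1.

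Genes of eIF2 and its regulators were near the background as a list in high polysomes. The list mixes kinases and phosphatase subunits with eIF2 and eIF2B subunits, and Ppp1r15a, a member, is not in it. It therefore does not show whether the genes that set eIF2 phosphorylation differ as a group. Of 24 genes for eIF2 kinases, eIF2, eIF2B, phosphatase and related factors, 3 were called lower (Denr, Eif2s2 and Ppp1cc) and 2 higher (Eif2ak3 and Dnajc3) in high polysomes, against 17.9 and 15.1% of all genes, with a median of -0.11. In low polysomes 1 was called lower (Denr) and 2 higher (Dnajc3 and Eif2ak2), and in monosomes Dnajc3 alone was called. Eif2ak3, the kinase PERK of the endoplasmic reticulum, was at 1.08 ± 0.14 in high polysomes (adjusted p = 7.5e-09) and 0.53 ± 0.19 in monosomes (adjusted p = 0.030, limma). Eif2ak4, the amino acid sensor GCN2, had log2 changes of -0.07, 0.08 and 0.36 in the 3 fractions, and Ppp1r15b, the constitutive phosphatase subunit, -0.28, 0.03 and 0.24, none of them called. Dnajc3, an inhibitor of PERK, was called higher in all 3 fractions (1.21, 1.48 and 1.31).

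In the other branches of the unfolded protein response, every gene that was called was higher in KO cells. Of 19 tested genes of the IRE1 and ATF6 branches, 1 was called higher in monosomes, 6 were in low polysomes and 10 were in high polysomes, where the median was 1.33, and none was called lower in any fraction. Over all genes tested, 8.43, 11.4 and 15.1% were called higher in these fractions and 9.63, 13.6 and 17.9% lower. The monosome count was thus not above the background. The chaperone Hspa5 (BiP) had the largest value in high polysomes, 2.23 ± 0.12, with 0.87 ± 0.13 in monosomes. Dnajb9, a BiP cofactor, was called higher in all 3 fractions (1.01, 2.06 and 1.97), a call lost with the replicate number as a block and without WT gradient 1 or KO gradient 1. For 6 of the 19 genes the high polysome to monosome ratio was called higher in KO than in WT cells, against 6.29% of all genes. The genes of this list were not set beside their CDS length deciles, so the part of CDS length was not tested.

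Genes of glutathione metabolism and NRF2 targets, examined because CHAC1 degrades glutathione, gave 2 of 10 called lower (Ggct and Hmox1) and none higher in high polysomes (median -0.38), near the 17.9% of all genes called lower. Of 6 paralogues of the members tested, 1 was called lower (Ddit4l, -1.06) and 1 higher (Trib1, 1.10) in high polysomes, with a median of 0.24. Chac2, the constitutive relative of Chac1, had 95 reads over all 18 libraries and at most 9 in any, too few to test.

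**Figure D4:**
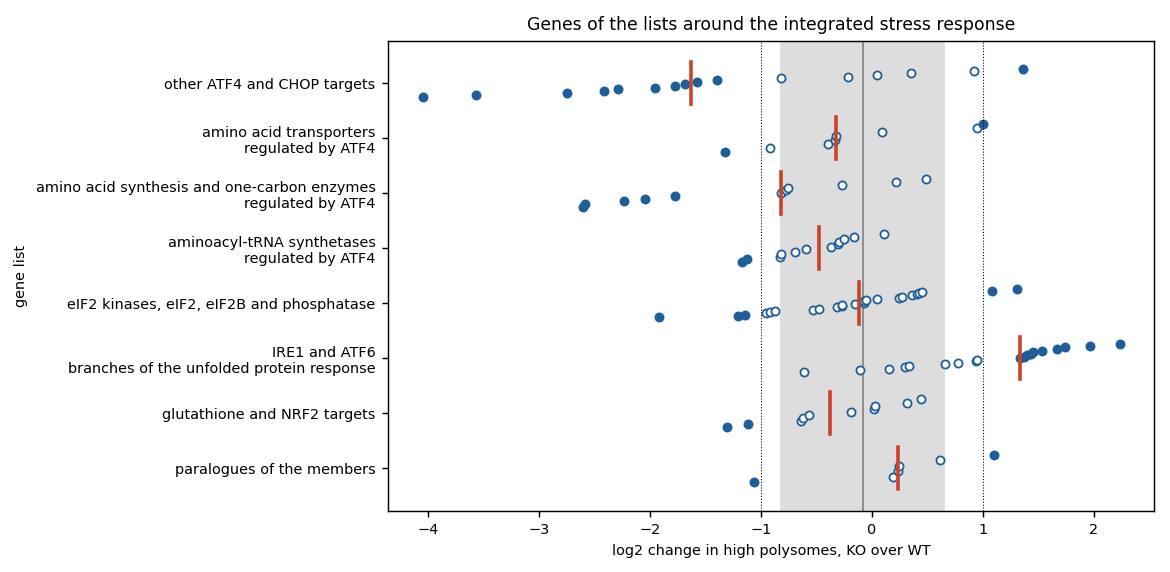
Log2 change in high polysomes, Dgcr8 KO over WT, of the tested genes of each list (filled circles, called; open circles, not called; red bars, list median), with the quartile range of all 12851 genes in grey and dotted lines at the threshold of 1. Other ATF4 and CHOP targets lie mostly to the left (median -1.63, with Fgf21 and Atf3, under 3 CPM in every KO library, at the far left) and genes of the IRE1 and ATF6 branches to the right (median 1.33).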

How the data were processed

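The deposited values are raw counts of QuantSeq 3′ end reads per gene. The authors trimmed reads with cutadapt 1.14, aligned them to mm10 with STAR 2.5.3a, kept reads that aligned to 1 locus, and counted them by strand over GENCODE M14 exons with featureCounts 1.5.3. No molecular identifiers were stated, so PCR copies count as reads and limits cover counting error only. The 92 spike-in entries, 0.00052 to 0.00215% of the reads, were left out, and 51274 of 51467 genes matched GENCODE M21 of the same build.

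The filter, at least 3 libraries at 3 CPM, left 12851 genes. They were fitted with TMM scaling and limma-voom (limma 3.58.1, R 4.3.3), as 6 group means without a block. Levels are TMM-scaled CPM over these genes, and marker sums are plain CPM. Per-gradient ratios use a prior count of 2. P-values are two-sided and adjusted by Benjamini-Hochberg over all genes tested, and a call needs both an absolute log2 change over 1 and an adjusted p under 0.05. Unnamed adjusted p-values are limma's. KO was compared with WT in each fraction, high polysomes with monosomes in each genotype, and that ratio between genotypes by the interaction term. The steps were tested on simulated data.

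The members, gene lists and tests were chosen with earlier results of these data known. Text names all members, Dgcr8, Eif2ak3, Eif2ak4, Ppp1r15b, Chac2 and, per list, up to 4 genes called in the same direction in all 3 fractions with the largest mean change. Other list genes and markers were named after their values were seen. The fractions of a gradient share its number in the labels, and their deviations from the group means correlated at 0.03 to 0.14 (18 pairs, mean 0.07). The mean for other pairs was -0.03. Deviations cancel within a group, so this mean follows from the first and is no separate baseline. Alternatives were edgeR 4.0.16, DESeq2 1.42.0, its size factors, total counts, no filter, a 10 CPM filter, each gradient left out, a replicate block, no fold threshold, and CDS length deciles. List counts without genes under 3 CPM in every library of one genotype were added after seeing the data.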

Additional observations from a re-analysis of the deposited data

Results flagged for a closer look

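For 4 genes the high polysome to monosome ratio differed between WT and Dgcr8 KO cells by its own test, the interaction of genotype and fraction (limma, adjusted p under 0.05). This rule has no fold threshold, and only Atf4 and Ddit4 also passed that threshold and were called. The share of all genes that meet the rule, or whose gradients separate fully by genotype, was not computed, so neither has a background. The log2 change of the ratio was -2.18 for Atf4, -1.21 for Ddit4, -0.99 for Atf5 and -0.92 for Ppp1r15a, and in each of them all 3 KO gradients lay below all 3 WT gradients. That separation rests on the same libraries as the test and adds no support to it. Against the median of the CDS length decile, the values were -2.03, -0.57, -0.65 and -1.25. These values share their libraries with the KO to WT changes in monosomes and high polysomes and are not independent of them.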

How the results depend on the processing

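With the replicate number as a block, the members called were 5, 7 and 4 in monosomes, low and high polysomes, 3 and 6 for the WT and KO ratios and 2 for the interaction. The block added Ddit3 in monosomes, set the same-direction count of the IRE1 and ATF6 list to 0, and changed no other of these counts by over 1.5 times. Between genotypes, same-numbered libraries correlated at 0.00 to 0.10 and share only a number.

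With no fold threshold, 8 members were called in high polysomes, 7 for the WT ratio and 4 for the interaction. The 8 include Sesn2, which was higher in KO cells (0.42). The share of all genes called at this setting was not computed, so these counts have no background. Total counts in place of TMM gave 7 in high polysomes and 4 for the interaction. That scaling moved the median of all genes from 0.01 to -0.32 for the interaction and from -0.08 to -0.31 in high polysomes, and the higher share of calls from 41.6 to 11.99% and from 45.8 to 31.4% (from 40.6 to 28.3% for the KO ratio). It gave 2 transporters and 2 synthetases in the same direction in all 3 fractions, and 4 synthetases and 1 paralogue called in high polysomes. The 10 CPM filter left 1 transporter in high polysomes and 0 genes of the IRE1 and ATF6 list in all 3 fractions, and no filter gave 1 paralogue in all 3.

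Leaving out 1 gradient at a time, the members called ran from 3 to 5 in monosomes, 6 to 7 in low and 3 to 4 in high polysomes, 2 to 3 and 5 to 6 for the WT and KO ratios and 2 to 4 for the interaction. Counts in high polysomes ran from 1 to 3 for transporters, 1 to 2 for synthetases and 0 to 2 for paralogues, and counts in all 3 fractions from 1 to 2, 0 to 1 and 0 to 1, with 0 to 1 for the IRE1 and ATF6 list.

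Signs turned for values near 0. Ddit3 in the interaction was 0.0084 with edgeR, 0.017 with DESeq2, 0.039 with the block and -0.44 to 0.21 without a gradient, and 0.83 against its CDS decile, where Nupr1 was 0.20. Sesn2 in monosomes was -0.0064 with the 10 CPM filter and -0.051 to 0.17 without a gradient, and in low polysomes -0.012 to 0.22 without a gradient. Atf4 in the WT ratio was -0.0025 with the 10 CPM filter. The causes were not tested. Leaving out list genes under 3 CPM in every library of one genotype, a setting added after seeing the data, took 2 genes (Fgf21 and Atf3) from the other ATF4 and CHOP targets and none from the other lists.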
